A study of Carica papaya with 55 samples.

Results

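X features without a Y partner are the features of papaya's X-linked region whose name, stripped of its suffix for the chromosome, is absent from the features listed on the Y. They numbered 27 of the 193 features in the count tables and 27 of the 97 on the X, beside 70 X features that have a Y partner. The rule used names and positions alone, and no measured value. The series followed sex-linked expression in flowers of Carica papaya 'AU9', with 21 female and 34 male libraries of RNA-seq in 19 groups, and it concerns CpMDAR4, which was not analysed here. Whole buds under 1 mm (S0) came from each sex. Pistils of female flowers, and pistillodes (the aborted pistil of a male flower) and stamens of male flowers, came from buds of 1 to 1.5 mm (S1), 2 to 4.5 mm (S2) and 4.5 to 6.5 mm (S3), all before meiosis, from buds of 7 to 12 mm after meiosis (S4), and from mature flowers of 15 to 20 mm (S5). Ovules of females and pollen of males came from S5. Each group had 3 libraries except the pistillodes of S2 and S3, with 2 each, and since nothing in the labels ties replicates to separate plants, p-values measure the spread between these libraries.

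Papaya females carry a pair of X chromosomes, and males carry an X and a Y with a male-specific region that does not recombine with the X. A gene of the X-linked region that has no Y copy is present on a single chromosome in males and on a pair in females. The absence of a partner rests here on the names in the tables, and a Y copy under another name was not looked for. The tables name these features CpX or PCpX with a number, none of the names matched the reference table of papaya genes, and no function or sequence is given for them here.

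Library totals ran from 21475 to 106846 counts (median 64618), with 27741 to 28555 in pollen. They are totals over sex-linked features alone and not the depth of the libraries. CpY19_MSY, a feature of the Y, had 0 to 1 counts in each female library and 148 to 880 in each male library. The tables hold no markers of floral organs, so the labelled organ was not checked. In bulk samples, fewer cells of a type and less RNA per cell cannot be told apart.

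The 27 features were short and lay mainly at one end of the region. They held 135 to 1185 exon bases with a median of 273, against 157 to 6610 with a median of 977.5 for the 70 paired X features. A single exon was listed for 18 of the 27 and for 18 of the 70. They ran from position 1956491 to 4780197 of the X in the files' coordinates (no source used here states the build), and 19 of the 27 started before position 2800000, as did 14 of the 70 paired features. CpX1 (X, 1956491 to 1956845), PCpX1_X (X, 1960931 to 1962115) and PCpX2_X (X, 1962973 to 1963813) were neighbours on the minus strand within 7323 bases, with 4085 and 857 bases between them. CpX10 and CpX14 had the same coordinates (X, 2365022 to 2365361) and both had 0 counts in every library. The file headers show no option that counts fragments over more than 1 feature, so a count of 0 at these shared exons does not tell a silent locus from fragments left unassigned. CpX17 (X, 2514306 to 2514491, minus strand) lay inside CpXY6_X (X, 2475725 to 2519414, plus strand) with 0 shared exon bases, and as no strand option was set, fragments from unspliced CpXY6_X RNA cannot be told apart from those of CpX17.

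Most of the X features without a Y partner gave next to no reads in flowers. Over all 55 libraries CpX10, CpX14 and CpX25 had 0 counts, 11 features had 1 to 9 counts, 8 had 10 to 99, 1 (CpX26) had 202 and 4 had 1000 or more. The 4 were PCpX2_X with 10098 counts, CpX1 with 8423, PCpX1_X with 6943 and CpX15 with 4016, which together held 98.2% of the 30007 counts of the 27 features. The other 23 held 527 counts. Of the 70 paired X features, none had 0 counts, 7 had under 100 in all and 54 had 1000 or more. The median total was 8 counts for the 27 and 17943.5 for the 70. The 27 made up 27.8% of X features and took 1.44% of X counts. Counts were not divided by length in these totals, and the paired features were longer.

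**Figure D1:**
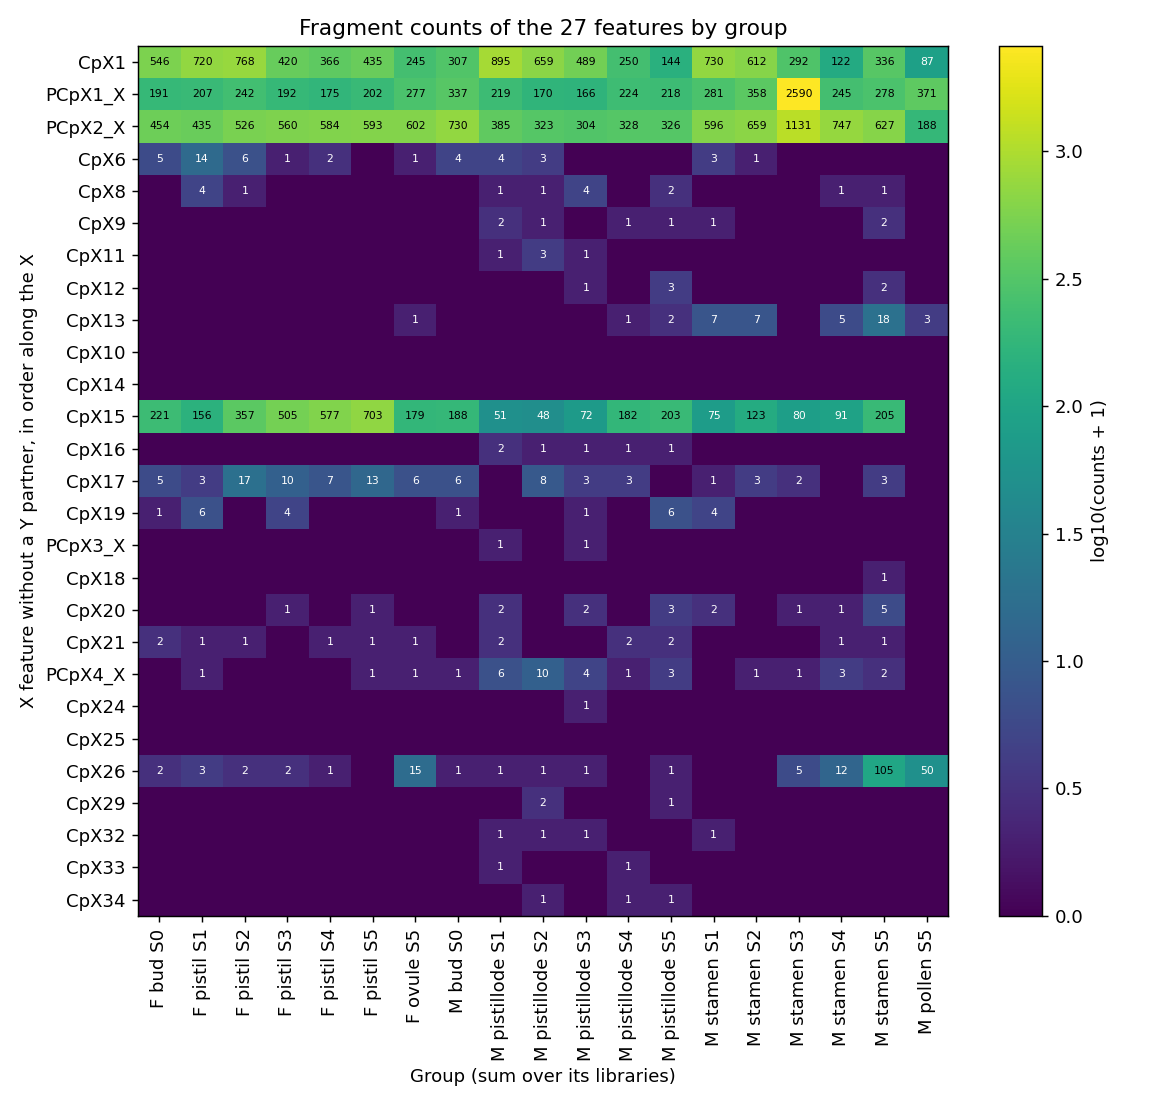
Fragment counts of the 27 X features without a Y partner (vertical axis, in order along the X) in the 19 groups (horizontal axis), each number the sum over the group's libraries and the colour its log10(counts + 1). PCpX2_X, CpX1, PCpX1_X and CpX15 fill most of the map, CpX15 is at 0 in pollen, CpX26 stands out in S5 stamens and pollen, and CpX10, CpX14 and CpX25 are at 0 throughout.

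Expression in the flower passed a filter on low counts for 5 of the 27 features: CpX1, PCpX1_X, PCpX2_X, CpX15 and CpX26. For CpX26, the counts that carried it past the filter are those of S5 stamens and pollen, the groups in which it was high. The 22 left out were CpX6 (44 counts), CpX8 (15), CpX9 (8), CpX11 (5), CpX12 (6), CpX13 (44), CpX10 (0), CpX14 (0), CpX16 (6), CpX17 (90), CpX19 (23), PCpX3_X (2), CpX18 (1), CpX20 (18), CpX21 (15), PCpX4_X (35), CpX24 (1), CpX25 (0), CpX29 (3), CpX32 (4), CpX33 (2) and CpX34 (3), each as its total over all libraries. Among the paired X features 62 of 70 passed.

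Some of these sparse features were seen in male libraries alone. Counts appeared at 24 of the 27 features in one sex or the other, at 13 in female libraries and at 24 in male libraries, and 11 (CpX9, CpX11, CpX12, CpX16, PCpX3_X, CpX18, CpX24, CpX29, CpX32, CpX33 and CpX34) had counts in males and 0 in all 21 female libraries. The 11 held 41 counts in all, and 27 of the 41 lay in 4 pistillode libraries (S1 replicate 1, S2 replicate 1, S3 replicate 2 and S5 replicate 3), against 14 in the other 30 male libraries. In those 4 libraries 8 to 11 of the 22 untested features had counts, against a median of 2 and at most 6 in the other 51 libraries. The 4 were picked after these counts were seen, as the libraries with counts at the most sparse features. Their excess over the other libraries follows in part from that choice. The numbers of features do not allow for library totals. Pistillode S4 replicate 3, with 6 features and the smallest total (21475), had 7 counts at them and was not placed among the 4. Of the 4, S1 replicate 1 had 13 such counts in a total of 48874, and S3 replicate 2 had 18 in 64784. Of the 14 features of the Y without an X partner that failed the same filter, 9, 11 and 10 had counts in the S1, S2 and S3 libraries of the 4, against at most 5 in any male library outside them, while the S5 library had counts at 3. Of the 8 paired X features under the filter, 2 to 5 had counts in the 4 libraries and up to 5 in the others. The part of these libraries in the male counts of the 11 features was not tested, and the totals over sexes (1390525 female and 2241658 male counts over all features) differ as well.

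Levels of the 5 tested features are given as CPM, the library's counts rescaled to a common total of sex-linked counts after normalisation by trimmed means of log ratios (TMM). Per kilobase of exon, averaged over libraries, PCpX2_X ranked 16 among the 67 tested X features with 7279 CPM per kilobase, CpX1 ranked 25 with 6502, PCpX1_X ranked 52 with 1692, CpX15 ranked 55 with 1336 and CpX26 ranked 62 with 206. PCpX2_X and CpX1 were thus above the middle of the X list, and PCpX1_X, CpX15 and CpX26 were in its lower part.

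**Figure D2:**
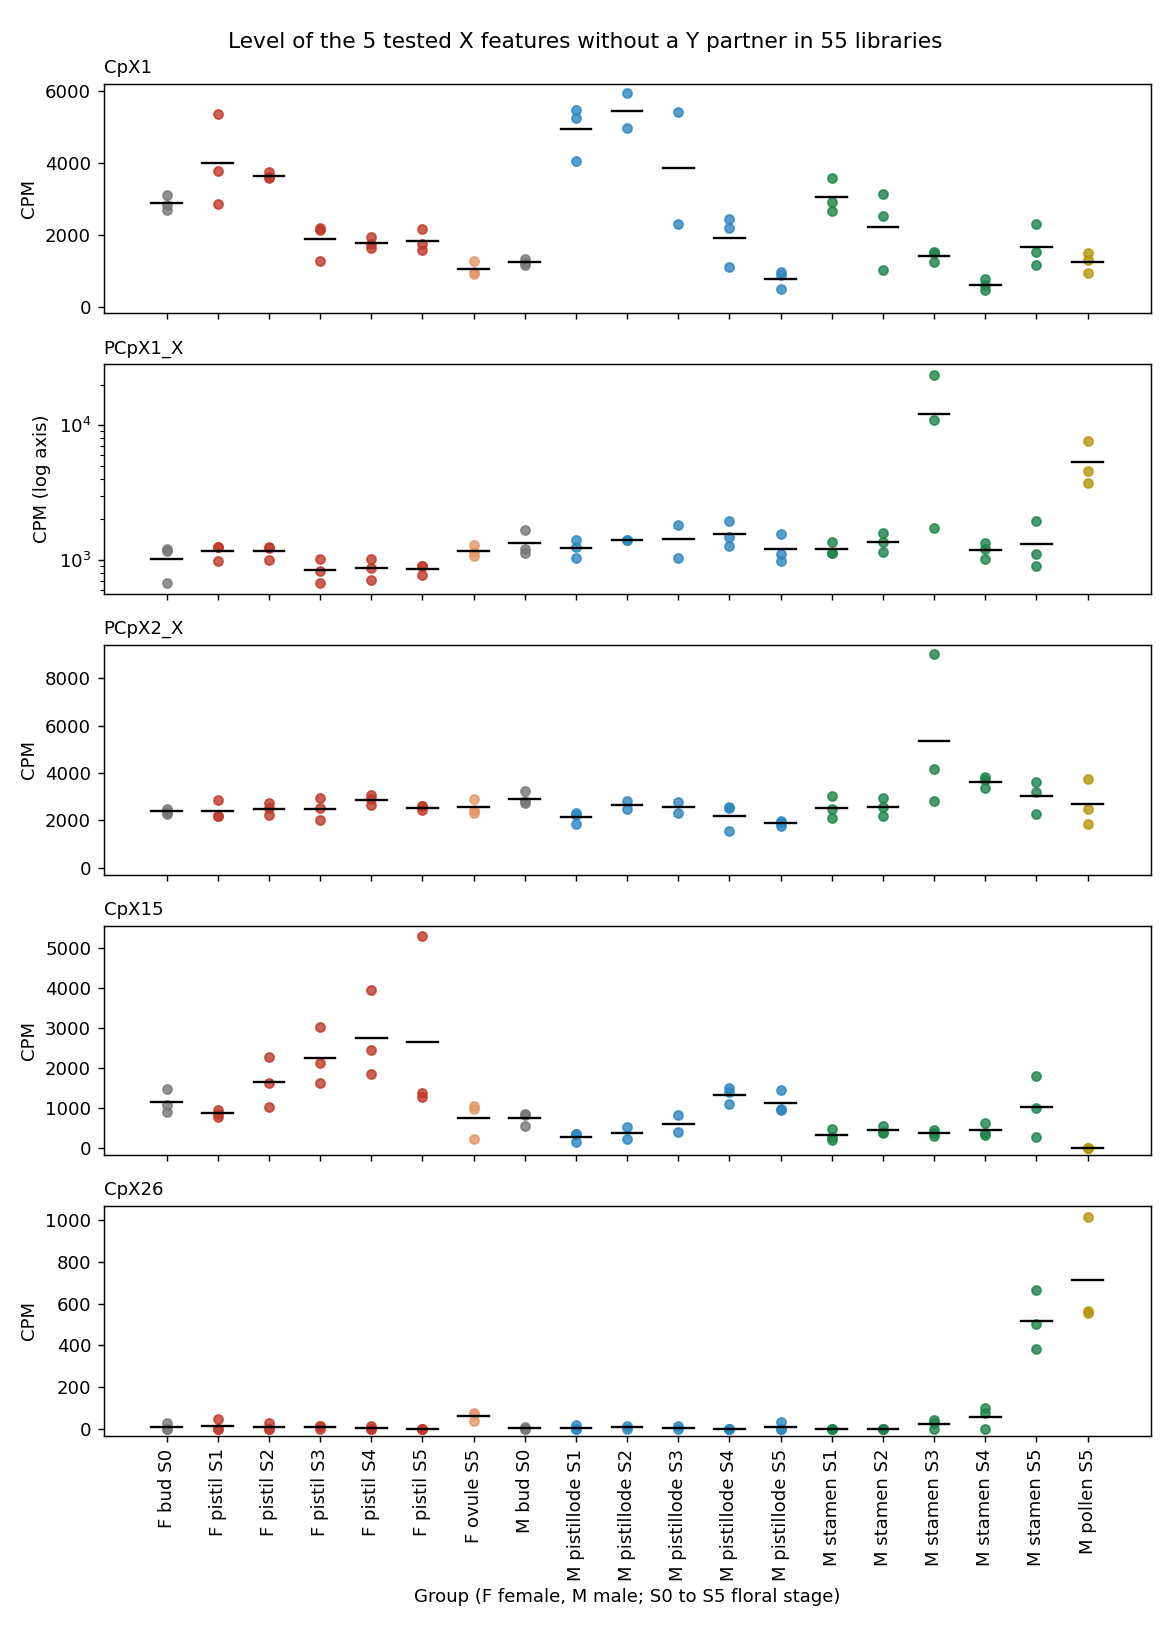
Level in CPM (vertical axes, log axis for PCpX1_X) of the 5 tested X features without a Y partner in each library (points) and the group mean (black bar) for the 19 groups (horizontal axis). Group means of CpX1 are highest in S1 and S2 pistillodes and those of CpX15 in pistils from S2 on. PCpX1_X is highest in 2 of 3 S3 stamen libraries and in pollen, and CpX26 in S5 stamens and pollen.

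Comparisons of the sexes gave no common direction among the 5 tested features. In male against female buds, 1 of 5 passed (edgeR's quasi-likelihood test, Benjamini-Hochberg adjusted p under 0.05 over 139 features), where 64.7% of all tested features passed. For pistillode against pistil, as the mean of the stage differences from S1 to S5, 2 of 5 passed, where 82.7% of all did. For stamen against pistil, 4 of 5 passed, where 83.5% of all did. The last of these comparisons shares its pistil libraries with the one before. CpX26 could not be estimated in either comparison of organs, where whole groups had 0 counts, and it did not pass. The median log2 difference was −0.62 over the 5 features in buds, and over the other 4 it was −0.0016 for pistillode against pistil and −0.14 for stamen against pistil. The same medians were −0.57, −0.64 and −0.61 over the 62 paired X features, and 0.08, 0.19 and 0.45 over all 139 features. The bud median includes CpX26, at −1.07 (SE 1.63) from 2 female and 1 male counts, and the organ medians leave it out. In buds the other 4 features were at −1.22, −0.62, 0.29 and 0.41, so the medians do not cover the same features.

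For part of the features the direction in these comparisons depended on the scaling. With TMM computed on X features alone, the median over all features moved by 0.57 in buds, 0.59 for pistillode against pistil and 0.68 for stamen against pistil, in log2 units. With TMM on all features, 0 of the 5 were higher and 1 lower in male buds, where 37.4% of all features were higher and 27.3% lower, and with TMM on X features 2 were higher (PCpX1_X by 0.99 and PCpX2_X by 0.86 in log2 units) and 0 lower, where 50.4% of all features were higher and 9.35% lower. For pistillode against pistil the 5 went from 1 higher and 1 lower (46.0% and 36.7% of all features) to 3 higher and 1 lower (59.0% and 21.6%). For stamen against pistil they went from 2 higher and 2 lower (46.0% and 37.4% of all) to 2 higher and 1 lower (59.0% and 18.7%). The medians became −0.078 over the 5 features in buds, and 0.59 and 0.55 over the 4 without CpX26 for pistillode and stamen against pistil, beside −0.0011 over the paired X features in buds, −0.091 for pistillode against pistil and 0.044 for stamen against pistil. Of the X counts alone, the 27 features took 1.14% ± 0.0418 (SD, n = 3) in female buds and 1.39% ± 0.0385 (SD, n = 3) in male buds, and the groups did not overlap (1.10 to 1.18% and 1.35 to 1.42%). Of all sex-linked counts the order was the other way, with 0.802 to 0.848% in female buds and 0.645 to 0.679% in male buds. In the organs, single pistil libraries of S1 to S5 held 0.888 to 1.62% of X counts. The mean share was 1.53 to 2.26% in pistillodes of S1 to S4 and 1.15% in those of S5, beside 1.16% in S5 pistils. In stamens it was 1.57% at S1, 1.44% at S2, 1.09% at S4 and 1.15% at S5, and the S3 libraries ran from 1.32 to 7.01%. The share of X counts was thus not higher in males at every stage.

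Within one sex, TMM on X features moved the median over all features by at most 0.16 in log2 units. For stamen against pistillode over S1 to S5, 3 of 5 features passed, where 51.1% of all did. For pollen against stamen at S5, 2 of 5 passed, where 71.9% of all did. For ovule against pistil at S5, 2 of 5 passed, where 8.63% of all did, although each of the 2 calls was lost when certain single libraries were left out. For late (mean of S4 and S5) against early (mean of S1 to S3) stages, 1 of 5 passed in pistils, where 16.5% of all did, and 2 in pistillodes, where 23.7% did. In stamens 65.5% of all features passed, and 3 of the 4 besides CpX26 did. The late change differed between pistillode and pistil for 1 of 5 features, where it did for 20.9% of all, and between stamen and pistillode for 2 of the 4 besides CpX26, where it did for 47.5%. CpX26 is left out of both counts in stamens because S5 stamens and pollen were the groups that carried it past the filter. With table totals as the scale, the median over all features moved by −0.44 in late stamens and the calls of the 4 went from 1 higher and 2 lower (26.6% and 38.8% of all features) to 0 higher and 3 lower (16.5% and 54.0%). That scale moved the median by 0.26 in pollen, and size factors by the median of ratios moved it by 0.39, with no change in the calls of these features in pollen.

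Without the 4 pistillode libraries that had counts at many sparse features, the pistillode comparisons were refitted with 1 library each at S2 and S3. Against pistils, CpX15 was at −1.36 (edgeR's quasi-likelihood test, Benjamini-Hochberg adjusted p = 0.00016) and PCpX1_X at 0.62 (adjusted p = 0.014). In late against early pistillodes, CpX1 was at −1.60 (adjusted p = 2.8e-05 by edgeR's test) and CpX15 at 1.37 (adjusted p = 0.037). In stamens against pistillodes, CpX1 was at −0.60 (adjusted p = 0.0032 by edgeR's test) and PCpX2_X at 0.55 (adjusted p = 0.0018), while PCpX1_X at 0.54 did not pass (adjusted p = 0.0603). Neither CpX1 nor PCpX1_X passed in that fit for the difference in late change between stamen and pistillode.

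**Figure D3:**
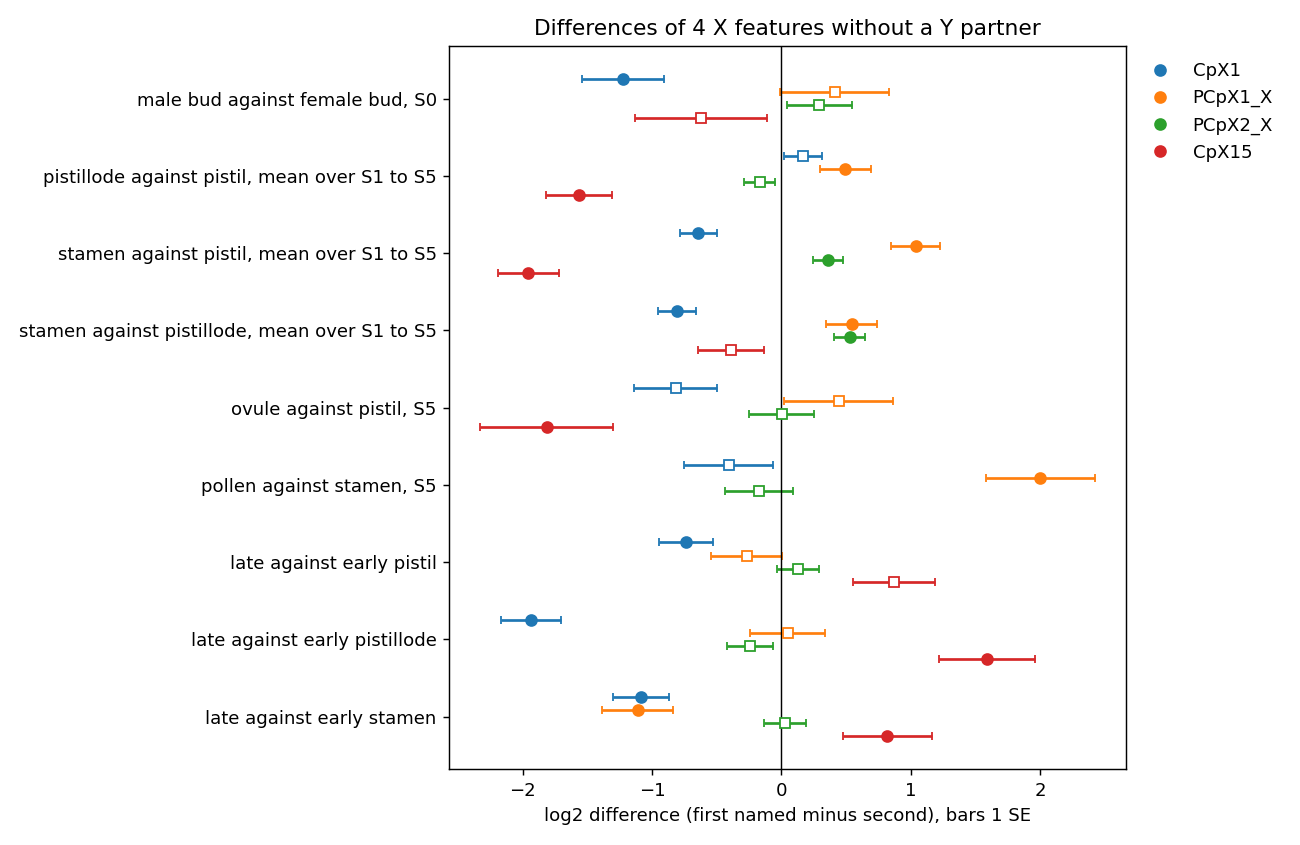
Log2 difference (horizontal axis, with bars of 1 SE) of CpX1, PCpX1_X, PCpX2_X and CpX15 in 9 comparisons (vertical axis). Filled circles passed an adjusted p of 0.05 and open squares did not, and CpX15 in pollen, at 0 counts, is left out. CpX1 lies left of 0 in late stages of all 3 organs and CpX15 lies left of 0 in pistillodes and stamens against pistils.

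CpX1, a one-exon feature of 355 bases, was lower in male than in female buds. It was lower in late (S4 and S5) than in early (S1 to S3) stages of every organ sampled over time. Its level was 2822, 2694 and 3108 CPM in the female bud libraries and 1212, 1327 and 1149 in the male ones. The lowest female library was above the highest male library. The log2 difference was −1.22 (SE 0.32, 0.428-fold, edgeR's quasi-likelihood test, Benjamini-Hochberg adjusted p = 0.00092). With TMM on X features alone it was −0.65, and the adjusted p of edgeR's test was 0.0844.

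In the organs the group means of CpX1 were highest in S1 and S2 pistillodes, whose libraries overlapped those of S1 pistils (up to 5368 CPM). The mean level in pistillodes was 4936 ± 763 CPM at S1 (SD, n = 3) and 5460 ± 679 at S2 (n = 2), and it was 1911 ± 703 at S4 (n = 3) and 777 ± 251 at S5 (n = 3). At S3 the libraries held 2313 and 5437 CPM, and the higher was replicate 2, one of the 4 with many sparse features. The others of the 4 were S1 replicate 1 (4065 CPM), S2 replicate 1 (5940) and S5 replicate 3 (494). Late pistillodes were lower than early ones by a log2 difference of −1.94 (SE 0.23, edgeR's quasi-likelihood test, Benjamini-Hochberg adjusted p = 6.2e-09).

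Late pistils and late stamens had less CpX1 than early ones as well, though not by a steady fall. The mean in S1 pistils was 4004 ± 1271 CPM, in S2 pistils 3642 ± 83.0, in S3 pistils 1871 ± 518, in S4 pistils 1778 ± 155 and in S5 pistils 1833 ± 303 (SD, n = 3 each). S1 stamens held 3048 ± 475 CPM, S2 stamens 2227 ± 1100, S3 stamens 1409 ± 153, S4 stamens 609 ± 149 and S5 stamens 1659 ± 576 (SD, n = 3 each). The pistil level was lower from S3 on, and the stamen level was lowest at S4, where no library overlapped one of S5. The late change was −0.74 in pistils (SE 0.21, adjusted p = 0.0090) and −1.08 in stamens (SE 0.22, adjusted p = 2.4e-05), both by edgeR's quasi-likelihood test with Benjamini-Hochberg adjustment.

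The fall of CpX1 from early to late stages was larger in pistillodes than in pistils, by −1.20 on the log2 scale (SE 0.30, edgeR's quasi-likelihood test, Benjamini-Hochberg adjusted p = 0.0034). Pistillode libraries were all above those of pistils at S2 and S3 and all below at S5, and the difference over the 5 stages did not pass (0.17, SE 0.15, adjusted p = 0.30 by edgeR's test with Benjamini-Hochberg adjustment), although with TMM on X features alone it was 0.76 (adjusted p = 1.8e-05). Between stamen and pistillode the late change differed by 0.85 (SE 0.31, adjusted p = 0.020 by the same test), with an adjusted p of 0.0616 without stamen S5 replicate 2 and 0.18 with table totals, where the difference was 0.55. Stamen libraries were all below those of pistillodes from S1 to S4 and all above at S5.

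Averaged over stages, CpX1 was lower in stamens than in pistils, by −0.64 (SE 0.14, edgeR's quasi-likelihood test, Benjamini-Hochberg adjusted p = 7.4e-05), and than in pistillodes, by −0.81 (SE 0.15, adjusted p = 1.2e-05). With TMM on X features alone the difference from pistils was 0.047 (adjusted p = 0.81 by edgeR's test). The level was 1263, 957 and 905 CPM in ovules, against 1744, 2170 and 1584 in S5 pistils, and the groups did not overlap. That difference of −0.82 (SE 0.32) had an adjusted p of 0.12 by edgeR's test with Benjamini-Hochberg adjustment. In pollen CpX1 was at 1499, 938 and 1299 CPM, overlapping S5 stamens (difference −0.41, SE 0.34).

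PCpX1_X, a feature of 1 exon and 1185 bases, was level in most groups and high in pollen and in part of the S3 stamen libraries. In the 17 groups other than these, group means ran from 844 to 1559 CPM. In pollen the libraries held 3726, 4552 and 7591 CPM, against 1112, 898 and 1944 in S5 stamens. The lowest pollen library was above every S5 stamen library. The log2 difference was 2.00 (SE 0.42, 4.00-fold, edgeR's quasi-likelihood test, Benjamini-Hochberg adjusted p = 5.0e-05), and it passed without any single library (adjusted p at most 0.0014).

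The 3 S3 stamen libraries did not share a level of PCpX1_X. They held 10943, 1730 and 23642 CPM, from 769, 113 and 1708 counts. PCpX2_X stood at 4184, 2833 and 9025 CPM in the same libraries, so that replicates 1 and 3 were above replicate 2 for both neighbours. Of 121 features with at least 20 counts in one of the 3 libraries, 7 were over 1.5-fold higher in both replicates 1 and 3 than in replicate 2. This rule was set after PCpX1_X was seen, and features split the other way were not counted. The 7 were PCpX1_X, PCpX2_X and, named after their values were seen, CpXY31_X, CpXY43_X, CpXY4_MSY, CpXY31_MSY and CpXY35_MSY. In replicates 1, 2 and 3, CpXY31_X had 65, 1 and 5 counts and CpXY31_MSY had 96, 0 and 19. CpXY4_MSY, a Y feature, had 11385, 3384 and 16237 CPM in S3 stamens and 24439 to 30078 in pollen, against at most 52.9 in any S2 or S4 stamen library, and 15625, 29035 and 384 in S5 stamens. CpY17_MSY, the feature highest in pollen (337192 to 472234 CPM), had 925, 1210 and 1135 CPM in the S3 stamens and did not split them. The part of replicates 1 and 3 in the level of S3 stamens was not tested.

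Results on PCpX1_X in stamens are therefore given with all libraries and with S3 represented by replicate 2 alone. Stamens were higher than pistils by 1.04 on the log2 scale (SE 0.19, edgeR's quasi-likelihood test, Benjamini-Hochberg adjusted p = 3.1e-06) and by 0.48 with S3 replicate 2 alone (adjusted p = 0.0011). The difference from pistillodes was 0.54 (SE 0.20, adjusted p = 0.020 by edgeR's test with Benjamini-Hochberg adjustment) and became 0.13 (adjusted p = 0.47). With table totals it was 0.44 (adjusted p = 0.0607 by edgeR's test). The late change in stamens was −1.11 (SE 0.27, adjusted p = 0.00046 by edgeR's test) and became 0.12 (adjusted p = 0.64). Its difference from the late change in pistillodes was −1.16 (SE 0.40, adjusted p = 0.014) and became 0.043 (adjusted p = 0.94), also by edgeR's test. This last difference also did not pass without stamen S3 replicate 3 or without any one of pistillode S2 replicate 1, S3 replicate 2, S4 replicate 1 and S5 replicate 2 (adjusted p up to 0.10). The fall of PCpX1_X in late stamens, and its excess over pistillodes, thus rested on S3 replicates 1 and 3.

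Pistillodes had more PCpX1_X than pistils. Over S1 to S5, libraries ran from 988 to 1932 CPM in pistillodes (median 1398, n = 13) and from 678 to 1251 in pistils (median 985, n = 15). Pistillode libraries were all above those of pistils at 4 of 5 stages, S2 to S5. The log2 difference was 0.49 (SE 0.20, edgeR's quasi-likelihood test, Benjamini-Hochberg adjusted p = 0.020). It did not pass without pistillode S4 replicate 1 (0.31, adjusted p = 0.16) or with table totals (0.42, adjusted p = 0.0545). In buds PCpX1_X was at 1160, 670 and 1203 CPM in females and 1212, 1133 and 1677 in males, and the groups overlapped.

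PCpX2_X, which has 3 exons and 376 bases, was the steadiest of the 5. Apart from S3 stamens (5347 ± 3256 CPM, SD, n = 3), its group means ran from 1887 ± 107 CPM in S5 pistillodes to 3638 ± 226 in S4 stamens (SD, n = 3 each). All neighbours in the order of the 19 group means overlapped in their libraries. Over S1 to S5 the libraries ran from 2100 to 9025 CPM in stamens (median 3028, n = 15), from 1542 to 2836 in pistillodes (median 2317, n = 13) and from 2038 to 3064 in pistils (median 2590, n = 15). Stamens were higher than pistillodes by 0.53 on the log2 scale (SE 0.12, edgeR's quasi-likelihood test, Benjamini-Hochberg adjusted p = 0.00023), with no overlap at S3, S4 and S5. They were higher than pistils by 0.36 (SE 0.11, adjusted p = 0.0033), which became 0.19 with S3 replicate 2 alone (adjusted p = 0.0674) and 0.18 with table totals (adjusted p = 0.14). The difference of pistillodes from pistils was −0.17 (SE 0.12, adjusted p = 0.19 by edgeR's test), with TMM on X features alone 0.43 (adjusted p = 0.0016), and without pistillode S4 replicate 1 −0.33 (adjusted p = 0.016). The late change in stamens was 0.027 (SE 0.16, adjusted p = 0.90 by edgeR's test) with all libraries, 0.64 with S3 replicate 2 alone (adjusted p = 0.00021), 0.42 without S3 replicate 3 (adjusted p = 0.0059) and −0.41 with table totals (adjusted p = 0.028). Its difference from the late change in pistillodes was 0.27 (SE 0.24, adjusted p = 0.41 by edgeR's test), 0.86 with S3 replicate 2 alone (adjusted p = 0.00056) and 0.65 without S3 replicate 3 (adjusted p = 0.0065). In pollen PCpX2_X was at 1842, 2487 and 3735 CPM and in S5 stamens at 3624, 2276 and 3200, which overlapped.

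The ratio of counts between these neighbours set 5 libraries apart. PCpX1_X counts divided by PCpX2_X counts lay between 1.83 and 2.62 in the 3 pollen libraries and in S3 stamen replicates 1 and 3. In the other 50 libraries the ratio ran from 0.232 to 0.824 with a median of 0.452, and in female libraries from 0.232 to 0.573. As a ratio of counts within a library it does not depend on the scaling, and it is not divided by exon length.

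**Figure D4:**
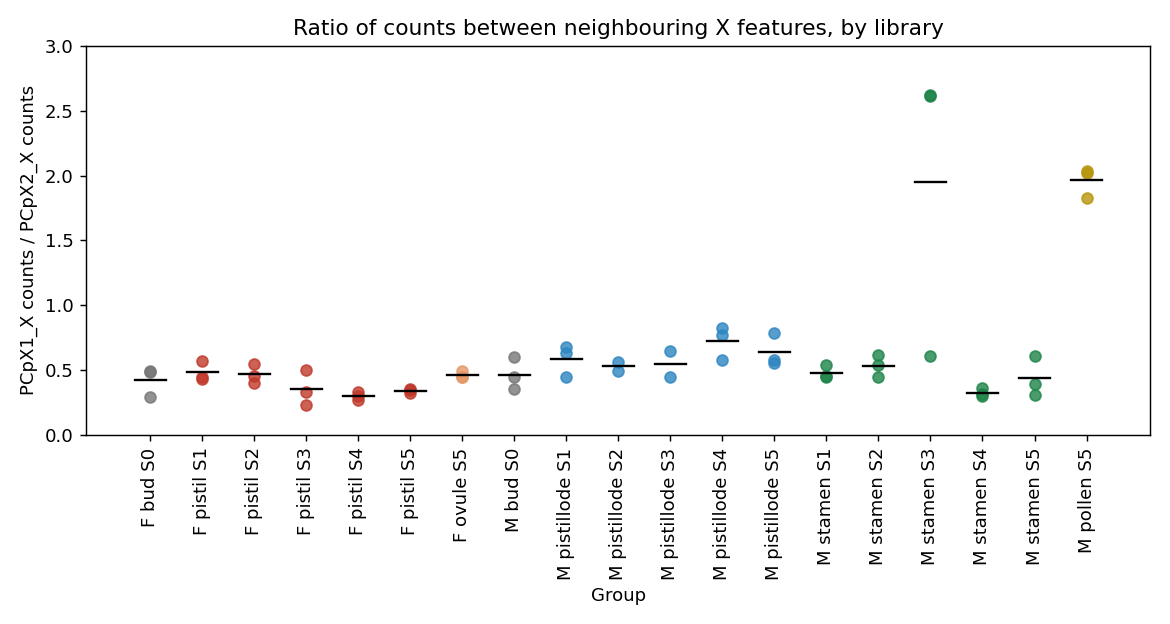
Counts of PCpX1_X divided by counts of PCpX2_X (vertical axis) in each library (points) with the group mean (black bar) for the 19 groups (horizontal axis). The 3 pollen libraries and 2 of the 3 S3 stamen libraries lie between 1.83 and 2.62, and the other 50 libraries lie between 0.232 and 0.824.

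CpX15 (X, 2371023 to 2371797, 1 exon, 775 bases) was lower in pistillodes and stamens than in pistils and absent from pollen counts. It had 2698 counts over the 21 female libraries and 1318 over the 34 male libraries. The mean in S1 pistils was 875 ± 88.4 CPM, in S2 pistils 1654 ± 622, in S3 pistils 2266 ± 702 and in S4 pistils 2759 ± 1082 (SD, n = 3 each), and the S5 pistil libraries held 1295, 5299 and 1378. S1 pistillodes held 284 ± 116 CPM (SD, n = 3), S2 pistillodes 393 ± 220 (n = 2), S3 pistillodes 624 ± 315 (n = 2), S4 pistillodes 1344 ± 207 (n = 3) and S5 pistillodes 1138 ± 285 (n = 3). Stamen means ran from 333 ± 139 at S1 to 456 ± 150 at S4 (SD, n = 3 each), and S5 stamens held 1020, 1812 and 278. Pistillode and stamen libraries were all below those of pistils at each stage from S1 to S4, and overlapped them at S5.

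The log2 difference of CpX15 from pistils was −1.56 in pistillodes (SE 0.25, 0.338-fold, edgeR's quasi-likelihood test, Benjamini-Hochberg adjusted p = 4.7e-07) and −1.96 in stamens (SE 0.24, 0.258-fold, adjusted p = 8.8e-10). Both passed in every alternative run, among them TMM on X features alone. Stamens and pistillodes differed by −0.39 (SE 0.26), with an adjusted p of 0.20 by edgeR's test. In buds the level was 903, 1488 and 1073 CPM in females and 557, 865 and 827 in males. Each male bud library was below each female one, and the difference of −0.62 (SE 0.51) had an adjusted p of 0.29 by edgeR's test with Benjamini-Hochberg adjustment.

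CpX15 rose with stage in pistillodes, by 1.59 from early to late (SE 0.37, edgeR's quasi-likelihood test, Benjamini-Hochberg adjusted p = 0.00094). In stamens the rise was 0.82 (SE 0.34, adjusted p = 0.036) and did not pass with table totals (0.36, adjusted p = 0.36) or without S5 replicate 2 (0.48, adjusted p = 0.24), S5 replicate 1 (0.82, adjusted p = 0.0520) or S4 replicate 2 (0.67, adjusted p = 0.11). In pistils the late change was 0.87 (SE 0.32, adjusted p = 0.0521 by edgeR's test). It passed without any one of 6 libraries (S2 replicate 3, S3 replicates 1 and 3, S4 replicate 3 and S5 replicates 1 and 3) and with table totals, TMM on X features, DESeq2 or no count filter (adjusted p 0.019 to 0.0474). The late changes of pistillode and pistil were not shown to differ (0.72, SE 0.49, adjusted p = 0.35 by edgeR's test).

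Pollen gave no CpX15 reads. The 3 pollen libraries had 0 counts each, which allows up to 3 counts over the group or 35.5 CPM, against 205 counts in S5 stamens at 1020, 1812 and 278 CPM. With pollen set at 3 counts and both groups scaled by TMM, the level was 23.0-fold lower in pollen. The difference passed in edgeR's quasi-likelihood test (Benjamini-Hochberg adjusted p = 7.2e-07), also without any single library (adjusted p at most 1.9e-05). In the same S5 stamen libraries CpY17_MSY stood at 133083, 184198 and 29955 CPM. The libraries thus kept the same order in both features.

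Ovules held 1053, 993 and 230 CPM of CpX15, below the 1295, 5299 and 1378 of the S5 pistils. The groups did not overlap, and replicate 2 of the pistils and replicate 3 of the ovules stood apart. The log2 difference was −1.81 (SE 0.51, edgeR's quasi-likelihood test, Benjamini-Hochberg adjusted p = 0.022). It was −0.79 without pistil S5 replicate 2 (adjusted p = 0.50) and −1.38 without ovule replicate 3 (adjusted p = 0.17).

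CpX26 (X, 3857191 to 3857577, 1 exon, 387 bases) had most of its 202 counts in mature male organs. It had 33, 43 and 29 counts in S5 stamens (503, 666 and 384 CPM) and 13, 12 and 25 in pollen (557, 563 and 1015 CPM). Elsewhere no library held more than 6 counts. In earlier stamens it had 0 counts in all libraries of S1 and S2, 2, 3 and 0 at S3, and 6, 6 and 0 at S4. Pollen and S5 stamens overlapped, with a log2 difference of 0.47 (SE 0.64, adjusted p = 0.55 by edgeR's quasi-likelihood test with Benjamini-Hochberg adjustment).

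S5 stamens held 105 counts of CpX26 and S1 to S3 stamens held 5. Since its counts in S5 stamens and pollen carried CpX26 past the filter, no ratio or test of its change in stamens is given. In the 13 pistillode libraries CpX26 had 4 counts, and all 4 lay in the libraries with counts at many sparse features. Those libraries were picked by such counts. Organ means over S1 to S5 could not be compared by the fit, as S1 and S2 stamens were at 0.

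In ovules CpX26 had 3, 6 and 6 counts, against 0 in each S5 pistil library. Ovules were at least 4.91-fold higher (edgeR's quasi-likelihood test, Benjamini-Hochberg adjusted p = 0.027). The call did not pass with DESeq2's Wald test (adjusted p = 0.0712) or without any one of 5 of the 6 libraries (adjusted p up to 0.15). In buds it had 2 counts in females and 1 in males.

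Among the sparse features, a few had enough counts to show where they lay, with counting error alone behind the intervals. CpX13 had 37 counts in 15 stamen libraries, 3 in 13 pistillode libraries and 0 in 15 pistil libraries, a stamen to pistillode ratio of 8.07 (95% exact binomial counting interval 2.56 to 40.9). Of its 18 counts in S5 stamens, 16 came from replicate 1. CpX17 had 50 counts in pistils, 14 in pistillodes and 9 in stamens, a pistillode to pistil ratio of 0.404 (0.206 to 0.742) and a stamen to pistil ratio of 0.170 (0.0734 to 0.349). CpX6 had 21 counts in S1 to S3 pistils and 2 in S4 and S5 pistils, an early to late ratio of 7.44 (1.82 to 65.5). PCpX4_X had 24 counts in pistillodes and 2 in pistils, but 21 of the 24 came from the 4 pistillode libraries with counts at many sparse features. Those 4 were picked by such counts. These ratios pool libraries, and no test over replicates was made for features under the filter. They were computed with TMM over all features alone. With TMM on X features the median over all features moved by 0.59 for pistillode against pistil, in log2 units. For stamen against pistil it moved by 0.68, and the intervals do not cover such shifts.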

How the data were processed

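The authors deposited 1 table per library, with fragment counts for sex-linked features alone. Per the file headers, counts were made with featureCounts 2.0.0 over exons summed by gene name, as fragments of read pairs; multi-mapping reads were counted at every location, and the headers set no strand option (0 of 55). Per the submitters' processing notes, tools included HISAT2 2.0.5 and SAMtools 1.3.1, with Trimmomatic 0.36 and FastQC 0.11.5, and an older featureCounts (1.5.2) than in the headers. Reads shared with copies elsewhere can therefore add to a feature. Buds were not tested against organs, because the headers show a separate folder for the 6 bud libraries and the other 49.

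Counts were scaled by TMM, filtered with filterByExpr by group (139 of 193 features kept) and modelled by quasi-likelihood in edgeR (version 4.0.16, R 4.3.3), with all 55 libraries and 19 groups in 1 fit, robust estimation and a prior count 0.125. P-values were two-sided and adjusted by Benjamini-Hochberg over 139 features, with a threshold of 0.05. Floors are 3 counts over a group and ratios carry 95% exact binomial intervals, both for counting error only. No 2 replicates agreed within sampling noise (chi-square per degree of freedom 1.46 to 209). The fit was tested on simulated data. Every feature of the list is accounted for, and tested ones are named where they passed. Of features outside the list, only those overlapping it and CpY17_MSY and CpY19_MSY were to be named. Members and lists were chosen with earlier results of these data known.

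Settings changed one at a time were the scaling (median-of-ratios size factors, totals of the tables, TMM on X features), the test (DESeq2 1.42.0), the count filter (none), a block for replicate number, and the libraries used (each left out once). Added after the data were seen were S3 stamens by replicate 2 alone and pistillodes without the 4 libraries named in the results. Figures were drawn with matplotlib 3.10.9 in Python 3.11.15, with SciPy 1.17.1 and pandas 2.3.3.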

Additional observations from a re-analysis of the deposited data

Results flagged for a closer look

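Changes with stage that differed between organs by a test of the difference itself were found for 2 features. For CpX1 the late against early change differed by −1.20 log2 units between pistillodes and pistils (pistillode minus pistil), and by 0.85 between stamens and pistillodes (stamen minus pistillode). For PCpX1_X it was −1.16 in stamens relative to pistillodes, which became 0.043 with S3 stamens represented by replicate 2 alone. Without the 4 pistillode libraries that had counts at many sparse features, neither difference between stamen and pistillode passed in edgeR's quasi-likelihood test (CpX1 0.70 with a Benjamini-Hochberg adjusted p of 0.11, PCpX1_X −0.90 with 0.12), while that of CpX1 between pistillode and pistil was −0.94 (adjusted p = 0.0496). S2 and S3 pistillodes then had 1 library each, taken to vary like the other groups.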

How the results depend on the processing

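With each library left out, 483 of 503 called values stayed on their side of the threshold, 20 crossed it and 0 changed sign; of 512 values not called, 9 crossed. In other settings, 159 of 175 called values kept call and direction. These totals include CpX26 in stamens, where its calls draw on the groups that carried it past the filter and are no support. Counts of the 5 tested features that passed (24 features with no count filter) are given next, with the share of all features that passed. Male against female buds gave 2 with TMM on X features (59.7%). Pistillode against pistil gave 1 with table totals (79.9%), 4 with TMM on X features (80.6%) and 5 of 24 with no count filter (66.3%). Stamen against pistil gave 3 with table totals (87.1%) or TMM on X features (77.7%), and 5 of 24 with no count filter (63.2%). With S3 replicate 2 alone, PCpX2_X was at 0.19 in that comparison. Stamen against pistillode gave 2 with table totals (52.5%). PCpX1_X was at 0.13 there with S3 replicate 2 alone and at 0.54 without the 4 pistillode libraries. Ovule against pistil gave 1 with DESeq2 (7.19%), and 0 to 2 with a library left out. Late against early pistil gave 2 with table totals (18.7%), TMM on X features (19.4%), DESeq2 (21.6%) and no count filter (2 of 24, 12.6%), and 1 to 2 with a library left out. The late change of stamen against pistillode is given for CpX1 and PCpX1_X. With a library left out, their adjusted p in edgeR's test reached 0.0616 and 0.10. The median of the tested features in buds was −0.078 with TMM on X features, 0.00 with no count filter and −0.79 to 0.18 with a library left out. With CpX26 counted, though not estimable there, the median was −0.17 for pistillode against pistil and 0.43, 0.85 and −0.33 to 0.16 in the same settings. For stamen against pistil it was 0.36 and then 1.05, 0.00 and 0.33 to 0.55. Without CpX26 and with a library left out, it was −0.17 to 0.067 and −0.16 to 0.013. Signs turned for PCpX2_X in pistillode against pistil (0.43) and CpX1 in stamen against pistil (0.047) with TMM on X features, for PCpX2_X in late stamens (−0.41) with table totals, and for PCpX1_X in late stamens (0.12) and in stamen against pistillode change (0.043) with S3 replicate 2 alone. The cause was not tested, except that no count filter adds features with few counts. Replicate numbers did not pair libraries (15 of 50 same-number pairs had a correlation over 0.1, median 0.0064, and 21 of 50 correlated best with their own number). With replicate number as a block, no count of tested features that passed changed in the 11 comparisons. The count was 1 in buds (64.7% of all features), 2 for pistillode (82.0%) and 4 for stamen (83.5%) against pistil. It was 3 for stamen against pistillode (52.5%), 2 for ovule (8.63%) and 2 for pollen (71.9%). Totals of sex-linked counts limit the sparse features, for which 22 of 27 could not be tested.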
